A study of Mus musculus with 6 samples.

Results

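The heat shock proteins and their DnaJ partners were read in heart and skeletal muscle of mice lacking the microRNA miR-214 (miR-214 KO) and of wild-type (WT) mice. Members were all probes whose gene symbol in the platform annotation names a small heat shock protein (Hspb), an HSP70 (Hspa), an HSP110 (Hsph), an HSP90 (Hsp90), the mitochondrial chaperonin (Hspd, Hspe) or a J-domain protein (Dnaja, Dnajb, Dnajc). The array carried 132 such probes for 66 genes. Of these, 83 probes for 53 genes were detected, meaning a detection p-value under 0.01, on at least 1 of the 6 arrays, among 11053 named genes detected in all. The 13 genes below that limit on every array were Dnaja1, Dnajb3, Dnajb7, Dnajb8, Dnajb14, Dnajc5g, Dnajc9, Dnajc14, Hspa12a, Hspa13, Hspa14, Hspb9 and Hspb11. Of the 53 members, 46 were detected on all 6 arrays. The exceptions were Hspa1b and Dnajc1 on 5 arrays, Hspa4l on 4, Dnajb13 on 3, Dnajc5b and Dnajc6 on 2 and Hspa5 on 1.

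The 6 groups were miR-214 KO and WT heart at postnatal day 14 (P14), miR-214 KO and WT heart at 8 weeks (adult heart), and miR-214 KO and WT tibialis anterior (TA), a shin muscle of mostly fast fibres, also at 8 weeks. Each group had 1 Illumina bead array, hybridised with material pooled from 3 mice. The labels give a mixed strain background and male sex for all groups, and say no more about the allele than that miR-214 is knocked out. Without replicates a difference between 2 arrays cannot be set against the spread between animals, and the standard error (SE) over beads given below covers only the reading of a probe within an array. All levels are normalised log2 intensities, so that a difference of 1 is 2-fold, and levels of different genes come from different probes and are not compared.

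Chaperones bind unfolded protein and help it to fold, to cross a membrane or to be degraded. HSP70 works in cycles of ATP hydrolysis that J-domain proteins start and HSP110 proteins reset, HSP90 finishes the folding of signalling proteins, and small heat shock proteins hold unfolding proteins in solution without using ATP. In heart and skeletal muscle several small heat shock proteins are abundant and associate with the contractile filaments. Heat and misfolded protein raise many members through heat shock factor HSF1, which binds repeats of the element GAANNTTC, while stress in the endoplasmic reticulum (ER) raises ER chaperones through the ER stress response element (CCAAT, 9 bases of any kind, then CCACG).

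The sequence that the KO mice lack is shown first, with its seed (bases 2 to 8), the part that pairs with target transcripts, in capitals. The mature miR-214-3p lies at chr1:162223438-162223459, plus strand, in RefSeq's GRCm38.p6.
miR-214-3p: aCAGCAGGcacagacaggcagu
The array has no probe for the mature microRNA. Dnm3os, the longer RNA from which miR-214 is cut, was detected on all 6 arrays, at 6.35, 5.89 and 6.24 in KO P14 heart, adult heart and TA, against 6.44, 6.14 and 6.48 in the WT samples. It therefore gives no check of the deletion. Dnajb2, Hspd1 and Hspe1 lie on the same chromosome as miR-214.

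Promoters were read for the 42 members found in RefSeq's table (GRCm38.p6), as the 250 bases before the start of transcription. The 8-letter element GAANNTTC, searched on both strands, was present for 9 of the 42 genes (Dnajb6, Dnajc27, Hspa1a, Hspa1b, Hspb1, Hspb3, Hspb6, Hspd1 and Hspe1), beside 7.726% of all 27025 genes in the table. The longer form, in which GAANNTTC is followed by NNGAA, was present for Dnajb6, Hspd1 and Hspe1, beside 0.5143% of all genes. The ER stress response element was present for Dnajc3, Hsp90b1 and Hspa5, beside 0.1295% of all genes. A gene counts where any of its windows holds the element. A match describes letters in the window and no site of binding. Of the promoters below, Hspb1 and Hspb7 belong to the members furthest apart between KO and WT, and Hsp90b1 to an ER member lower in TA than in heart. The windows are chr5:135887669-135887918, plus strand (Hspb1), chr4:141420529-141420778, plus strand (Hspb7), and chr10:86705445-86705694, minus strand (Hsp90b1). Capitals mark the GAANNTTC matches in Hspb1 and the ER stress response elements in Hsp90b1, and the Hspb7 window has no match to either.
Hspb1: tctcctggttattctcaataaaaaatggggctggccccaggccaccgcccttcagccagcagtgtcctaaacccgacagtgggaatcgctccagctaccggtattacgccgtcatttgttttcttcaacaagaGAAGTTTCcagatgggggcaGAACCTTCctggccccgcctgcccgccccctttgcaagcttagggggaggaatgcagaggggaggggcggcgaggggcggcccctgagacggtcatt
Hspb7: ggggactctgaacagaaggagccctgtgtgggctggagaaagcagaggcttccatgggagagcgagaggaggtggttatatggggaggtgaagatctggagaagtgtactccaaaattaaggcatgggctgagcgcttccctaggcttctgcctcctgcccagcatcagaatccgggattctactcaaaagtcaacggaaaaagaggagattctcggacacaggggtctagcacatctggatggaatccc
Hsp90b1: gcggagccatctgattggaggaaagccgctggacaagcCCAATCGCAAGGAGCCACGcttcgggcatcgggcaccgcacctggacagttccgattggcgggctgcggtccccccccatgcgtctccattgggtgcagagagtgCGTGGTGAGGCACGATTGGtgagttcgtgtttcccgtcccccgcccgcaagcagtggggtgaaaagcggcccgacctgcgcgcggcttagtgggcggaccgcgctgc
The chaperonin genes Hspd1 and Hspe1 stand head to head, and the run of 18 bases at chr1:55088059-55088076, plus strand, holds 2 overlapping matches to the longer form.
Hspe1: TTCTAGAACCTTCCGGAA

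Heart muscle markers were detected in all hearts (6 of 6 genes), and their median difference between TA and adult heart was -7.85. All arrays are labelled male, but the Y-linked genes Eif2s3y, Kdm5d and Uty were detected only in WT P14 heart, so the P14 pair also differs in these genes. Xist, the RNA of the inactive X, was detected on all 6 arrays, at 9.62 to 10.65. Xist with no Y-linked signal contradicts the male label for 5 of the 6 arrays, which read as female. WT P14 heart gave both signals and reads as a pool of both sexes. The P14 pair therefore appears to differ in sex make-up as well as in genotype. Groups were kept as labelled. Genes of fast skeletal fibres were higher in the KO heart of both ages, with summed intensities of 4544 in KO and 577 in WT P14 heart, and of 1430 in KO and 254 in WT adult heart, against 207718 in KO and 214630 in WT TA. In TA, 4 of 5 detected slow-fibre genes were past 1.5-fold higher in KO (median difference of the 5 genes 0.93). The fifth, Myl3, was past it lower (-0.63), and the sum over slow-fibre genes was 10682 in KO and 12950 in WT TA. Past 1.5-fold higher in KO TA were also 8 of 8 detected liver genes (sum over the 10 listed genes 8473 in KO and 1225 in WT). The other listed liver genes, Alb and Fgb, were detected on no array. All 3 fat cell genes detected in TA were past it too (sum over the 5 listed genes 857 in KO and 211 in WT). Marker sums cover every listed gene on the array, detected or not. In adult heart, the 2 detected airway genes, Scgb1a1 and Bpifa1, were lower in KO (sum over the airway and lung list 3372 in KO and 7723 in WT). The lung genes Sftpb and Sftpc on that list were detected on no array. Red cell genes were also lower (sum 564 in KO and 1866 in WT), and immediate early genes were higher (sum 1250 in KO and 890 in WT). The part of these differences in any chaperone result was not tested. In bulk tissue, more cells of a type and more RNA per cell cannot be told apart.

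The question of the study's design was what differs between miR-214 KO and WT in each of the 3 settings. The small heat shock proteins held the largest differences among the members: Hspb7 was 2.94-fold higher in KO than in WT adult heart and 3.68-fold higher in KO than in WT TA, and Hspb1 was 2.23-fold higher in KO TA. Hspb7, a small heat shock protein of heart and muscle that binds filamin C, read 10.01, 11.49 and 11.40 in KO P14 heart, adult heart and TA, against 10.33, 9.94 and 9.51 in the WT samples. The 2 adult KO samples lay above every other array, and the 2 P14 samples lay together, with WT slightly above KO. The differences were 1.56 in adult heart (bead SE 0.0740) and 1.88 in TA (bead SE 0.0853), and -0.33 in P14 heart (bead SE 0.0691).

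Hspb1, called HSP27 in humans, protects the actin cytoskeleton and is raised by heat. It read 10.86, 10.67 and 11.61 in KO P14 heart, adult heart and TA, against 10.30, 10.00 and 10.45 in the WT samples, so that each KO sample lay above all 3 WT samples. Its KO minus WT difference was 0.56 in P14 heart, 0.67 in adult heart and 1.16 in TA (bead SE 0.158, 0.117 and 0.141). Hspb2, first found as a binding protein of the myotonic dystrophy kinase, read 8.66 and 8.80 in KO P14 and adult heart, against 8.08 in both WT hearts, differences of 0.58 and 0.73. In TA, Hspb2 read 9.32 in KO and 9.06 in WT, a difference of 0.26.

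The remaining small heat shock proteins differed less between KO and WT. Hspb3, which forms a complex with Hspb2, differed by -0.20 in P14 heart, 0.11 in adult heart and 0.32 in TA. Hspb6, a target of protein kinase A in heart, differed by 0.10, 0.06 and -0.22. It read 14.59 to 15.12 on the 6 arrays, near the upper end of the scale (Myl3 read 15.14 in WT P14 heart). Differences may be compressed at that level. Hspb8, which sends misfolded filament proteins to autophagy together with Bag3, differed by -0.09, -0.25 and 0.36. Its other detected probe read -0.12, -0.10 and 0.65. Each of the other 5 detected small heat shock protein genes had 1 detected probe, so no other probe speaks to the differences of Hspb1, Hspb2 and Hspb7. Over the 6 genes the median difference was 0.01 in P14 heart, 0.39 in adult heart and 0.34 in TA, beside 0.000669, -0.04 and -0.02 over all genes.

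**Figure D1:**
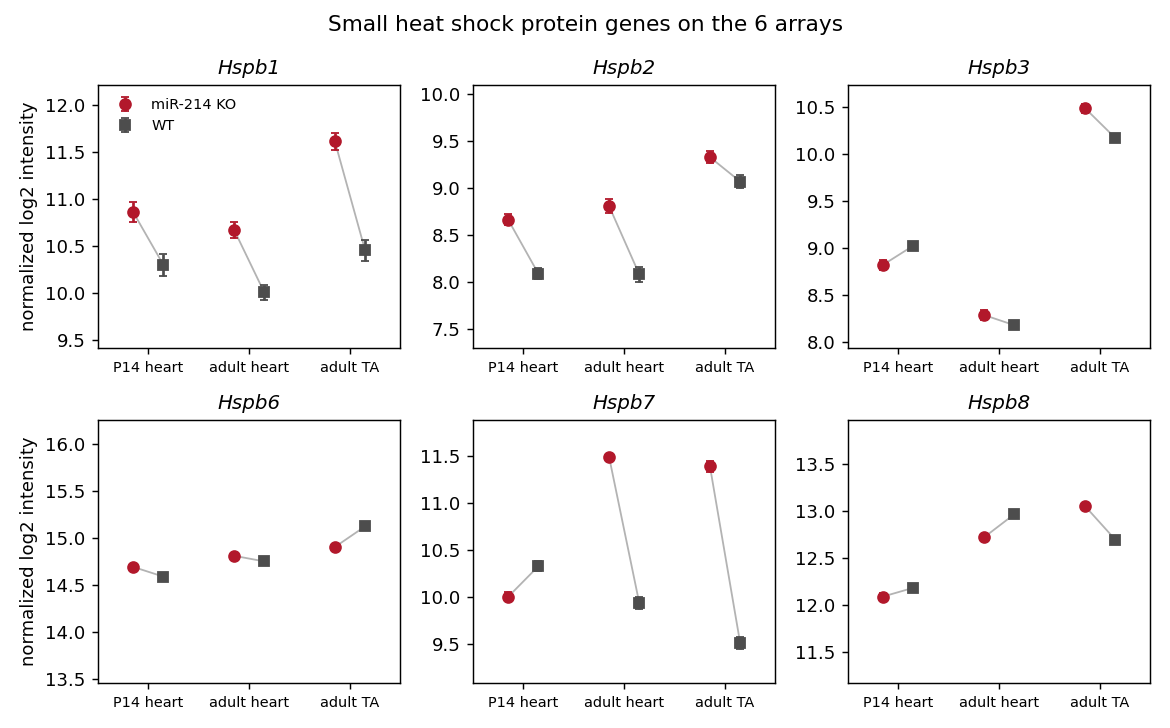
Normalised log2 intensity of the 6 detected small heat shock protein genes on each of the 6 arrays, 1 point per array, with miR-214 KO (circles) left of WT (squares) in each setting and a line joining each pair; error bars are the SE over beads, and the axes of the panels start at different levels. Hspb7 stands at 11.49 and 11.40 in the adult KO heart and TA, above 9.94 and 9.51 in WT. Hspb6 differs by at most 0.22 in any pair, but reads 14.59 to 15.12, near the upper end of the scale, where differences may be compressed.

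Over the 3 settings, KO minus WT was fitted for all genes with limma, which takes the variation of the difference between settings as noise. No member passed an adjusted p of 0.05 (Benjamini-Hochberg over 10271 genes), where 0.0682% of all genes did (7 genes), and 6 of the 52 members tested had an unadjusted p under 0.05, beside 9.69% of all genes. Hspb1 had the smallest p, with a difference of 0.80 (SE 0.141, limma adjusted p 0.341, higher in KO in 3 of 3 settings). With each array centred on its median in place of quantile normalisation, Hspb1 passed, with a difference of 0.85 and a limma adjusted p of 0.0382, where 0.175% of all genes did. Next came Hspb2 with 0.52 (SE 0.134, limma adjusted p 0.483), the mitochondrial HSP70 Hspa9 with -0.36 (SE 0.124, limma adjusted p 0.497) and Hspb7 with 1.04 (SE 0.360, limma adjusted p 0.497). Hspb2 was higher in KO in 3 of 3 settings, Hspa9 lower in 3 of 3, and Hspb7 higher in the 2 adult settings. The P14 pair, which differs in Y-linked genes, is also the only setting where Hspb7 was lower in KO (-0.33). Leaving it out removes the opposing value, so a pass of Hspb7 without it is no separate support. Without the P14 pair, Hspb7 passed, with a difference of 1.72 (SE 0.171, limma adjusted p 0.00622), where 0.195% of all genes did. That fit rests on 4 arrays with 1 residual degree of freedom, and in it Hspb1 had a difference of 0.91 and a limma adjusted p of 0.167. KO minus WT had the same sign in all 3 settings for 15 of the 46 members detected on all arrays, 32.6%, beside 34% of all such genes.

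In P14 heart, 6 of the 50 members detected in the pair (12%) were past 1.5-fold lower in KO and 0 were past it higher, beside 4.61% of all genes lower and 3.49% higher (8.11% either way). They were the HSP110 proteins Hspa4 and Hsph1, the HSP90 proteins Hsp90aa1 (cytosol) and Hsp90b1 (ER), the inducible HSP70 Hspa1a, and Dnaja2, a cytosolic partner of HSP70. Hsp90b1 read 10.95 in KO and 11.62 in WT, a difference of -0.66 (bead SE 0.0512). Hsp90aa1 read 7.63 in KO and 8.31 in WT, a difference of -0.67. Its other probe gave -0.42, but read 4.56 in KO, under the lowest detected level of that array (4.82). The largest of the 6 was Hspa4, which read 6.05 in KO and 6.86 in WT (-0.81, bead SE 0.128).

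The nucleotide exchange factor Hsph1 read 8.37 in KO and 8.97 in WT P14 heart, a difference of -0.60. Dnaja2 read 7.31 in KO and 8.00 in WT (-0.69), with -0.65 at its other probe. Of the 10 measured genes listed as heat-inducible through HSF1, 7 were lower in KO P14 heart, with a median of -0.34 and 3 past 1.5-fold, among them Hspd1 at -0.52 and Hspe1 at -0.49, neither past that limit. Hspb1, on the same list, was higher by 0.56. The direction of the count depends on the scaling: with each array centred on its median, Hspa4, Hspa1a and Dnaja2 stayed past 1.5-fold lower, while Hspb1, Hspb2 and Dnajc30 were past it higher (beside 4.19% of all genes lower and 6.29% higher). Hsp90aa1 and Hsp90b1 then differed by -0.58 and -0.48.

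In adult heart, 9 of 53 members (17%) were past 1.5-fold higher in KO and 1 (1.89%) lower, beside 7.35% of all genes higher and 3.82% lower (11.2% either way). Besides Hspb7, Hspb1 and Hspb2 these were Hspa1a, Hspe1, Dnajb5, Dnajc15, Dnajc19 and Dnajc25, and the lower gene was Dnajb4. Dnajc15 and Dnajc19 are J-domain proteins of the mitochondrial inner membrane that work with the protein import motor. Dnajc15 read 11.33 in KO and 10.65 in WT adult heart, a difference of 0.68 (bead SE 0.0555), against 0.15 in P14 heart and -0.11 in TA. Dnajc19 read 11.81 in KO and 11.15 in WT (0.66), but its other 2 detected probes gave 0.02 and -0.16, so its probes disagree. Dnajb4, a heat-inducible HSP40, read 6.36 in KO and 7.18 in WT (-0.82), while its other probe gave 0.14 (and -0.79 in P14 heart, where the first gave 0.06). Over all members, other detected probes had the sign of the probe used in 18 of 30 cases in P14 heart. The count was 18 of 30 in adult heart and 16 of 30 in TA. For genes past 1.5-fold it was 2 of 2 in P14 heart and 1 of 3 in adult heart. The bead SE does not cover this disagreement between probes.

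Hspe1, the lid of the mitochondrial chaperonin, read 9.39 in KO and 8.78 in WT adult heart, a difference of 0.61 (bead SE 0.0813). Hspd1, the barrel that Hspe1 closes, read 11.51 in KO and 11.70 in WT (-0.19), and its other probe gave -0.99. The pair that shares a promoter region thus differed in opposite directions in adult heart. Dnajb5 read 5.94 in KO and 5.23 in WT, and Dnajc25 read 6.54 in KO and 5.84 in WT, both near the lower end of the detected range.

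Hspa1a, the HSP70 that heat raises most, gave 5.08, 6.62 and 6.33 in KO P14 heart, adult heart and TA, against 5.86, 5.77 and 5.84 in the WT samples. The WT samples lay close together, and the KO samples lay below them at P14 and above them in the adult. Hspa1b codes for a near-identical protein, and array probes may not separate the 2 genes. Hspa1b differed by at most 0.35 in any pair. Hspa8, the constitutive cytosolic HSP70, differed by -0.07, -0.18 and -0.11 in P14 heart, adult heart and TA, though its other 2 probes gave -0.12 and -0.87 at P14 and -0.83 and -0.53 in adult heart. Hspa9 read 12.86, 13.29 and 12.94 in KO, against 13.29, 13.75 and 13.11 in WT, lower in KO in each pair, and its other probe gave -0.31, -0.42 and -0.11. Hspa2 differed by at most 0.19 in size, but its other probe gave -0.32, -0.39 and -0.30, lower in KO in each pair. Hspa12b, an HSP70 relative of endothelial cells, differed by at most 0.30.

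In TA, 2 of 49 members (4.08%), Hspb7 and Hspb1, were past 1.5-fold higher in KO and 0 were past it lower, beside 5.08% of all genes higher and 2.77% lower (7.85% either way). Both also were past 2-fold. Of the HSP110 and HSP90 genes that were lower in KO P14 heart, the TA differences were 0.49 for Hspa4, 0.05 for Hsph1, 0.33 for Hsp90aa1 and 0.12 for Hsp90b1. None of the 20 DNAJC genes measured in TA was past 1.5-fold, and their median was -0.01.

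The remaining J-domain proteins showed smaller differences. Over the DNAJC genes the median was 0.07 in P14 heart (20 measured), 0.22 in adult heart (22 measured, 15 of them positive) and -0.01 in TA, beside 0.000669, -0.04 and -0.02 over all genes. Dnajc24, which acts in the synthesis of diphthamide, read 8.20 and 7.77 in KO P14 and adult heart, against 7.70 and 7.28 in WT, differences of 0.50 and 0.49. Dnajc4 gave 0.48 and 0.46 in the same pairs, and Dnajc30, a mitochondrial J-domain protein, 0.55 and 0.17. Neither Dnajc24, Dnajc4 nor Dnajc30 reached 1.5-fold in any pair. Among ER members, Dnajb9 differed by -0.29 in P14 heart, -0.48 in adult heart and 0.32 in TA, and its other probe gave -0.75, -0.11 and 0.48. The ER disulphide reductase Dnajc10 differed by at most 0.10, though its probe detected on 4 arrays gave -0.37 in adult heart and -0.67 in TA, and Dnajc3, which restrains the ER stress kinase PERK, by -0.29, -0.35 and -0.06. Hspa5, the main ER HSP70, was detected in WT adult heart alone, just above the limit (4.97), so its level cannot be compared.

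**Figure D2:**
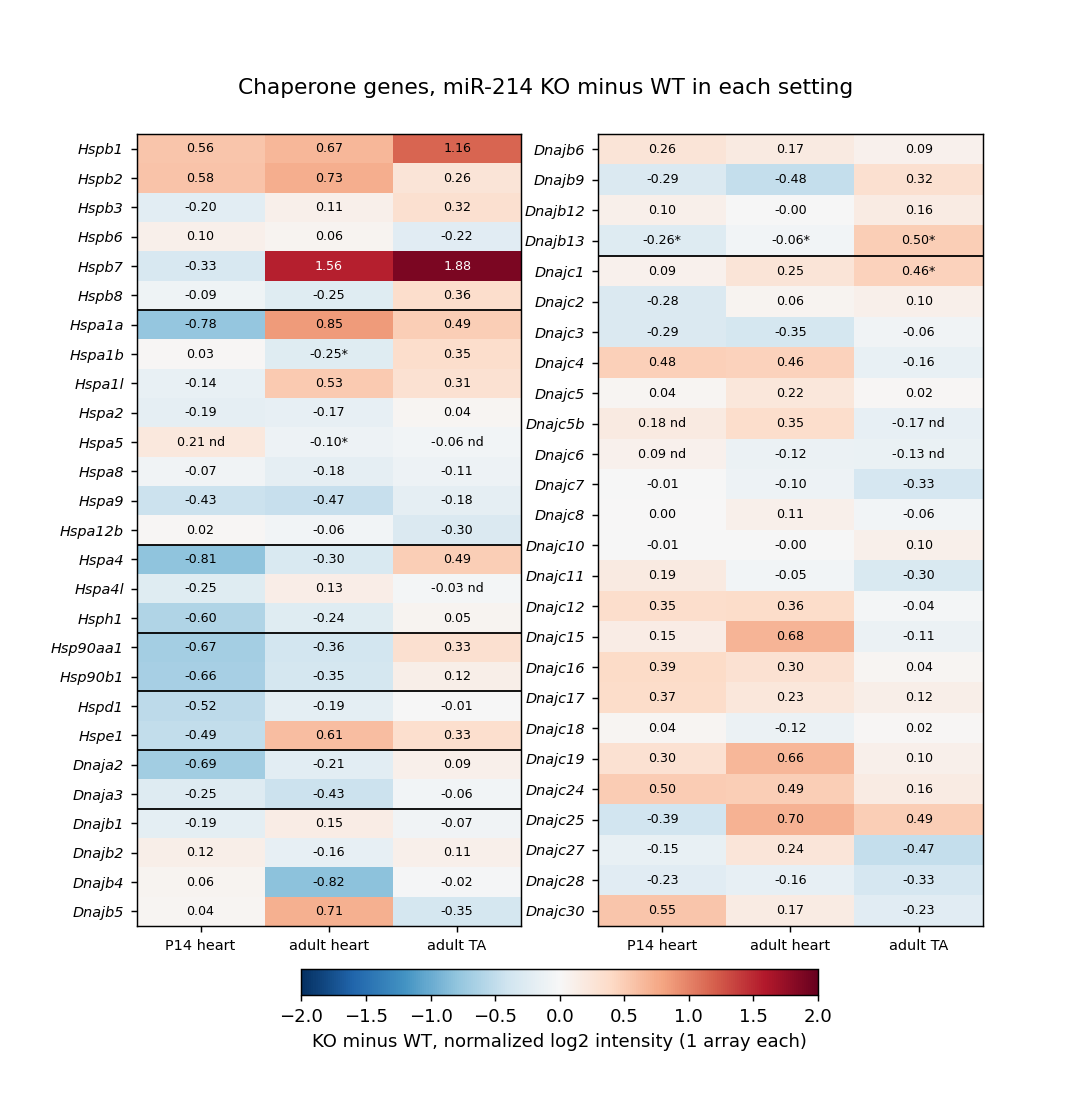
KO minus WT difference of normalised log2 intensity for each of the 53 members in P14 heart, adult heart and TA, ordered by role; red is higher in KO, blue lower, an asterisk marks a gene detected on 1 array of the pair, and nd a gene detected on neither. The strongest cells are Hspb7 in adult heart (1.56) and TA (1.88) and Hspb1 in TA (1.16), and the genes past 1.5-fold lower in P14 heart are Hspa1a, Hspa4, Hsph1, Hsp90aa1, Hsp90b1 and Dnaja2.

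Genes around the chaperones were read from lists by role. Cryab, the crystallin that belongs to the small heat shock proteins and lies next to Hspb2, read 11.81, 12.55 and 13.21 in KO P14 heart, adult heart and TA, against 11.75, 12.12 and 12.36 in WT, differences of 0.06, 0.43 and 0.85 (limma adjusted p over the settings 0.497). Among 21 co-chaperones of HSP70 and HSP90, Fkbp5, a glucocorticoid-induced partner of HSP90, was past 1.5-fold higher in KO adult heart (0.82) and TA (0.99), Hspbp1 was higher in KO P14 heart (0.88), and Bag2 was lower in KO adult heart (-0.59). Bag3, the partner of Hspb8, differed by at most 0.20. None of the 6 measured subunits of the CCT chaperonin was past 1.5-fold in any pair. Of 12 measured ER folding genes, Calr (1.24) and Sdf2l1 (0.60) were past it in KO P14 heart, where the ER HSP90 Hsp90b1 was lower, and Sdf2l1 (0.60) in KO TA. Of 6 mitochondrial partners, Clpx was past it in P14 heart (-0.65) and Grpel2 in TA (-0.69), both lower in KO. The heat shock factor gene Hsf4 was past it in adult heart (0.78), and Hsf2 differed by at most 0.42. The array named no probe for Hsf1, which is also on the heat shock factor list, so the level of Hsf1 was not read.

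The design also holds both tissues at the same age. Settings were compared in the same fit, where the only arrays of a setting are its KO and its WT array. The noise is again how KO minus WT varies between settings, and not the spread between animals of a tissue or age. Between adult TA and adult heart, 9 of 52 members (17.3%) passed an adjusted p of 0.05 and 2-fold, 5 higher and 4 lower in TA, beside 19.1% of all genes (8.46% higher and 10.6% lower). The higher genes were Dnajc27, Hspb3, Dnajc12, Hspa1l and Dnajb5, and the lower ones Hsp90aa1, Hsp90b1, Hspa4l and Dnajb1. Hspb3 read 10.49 and 10.18 in KO and WT TA, against 8.29 and 8.18 in KO and WT adult heart. Both TA samples lay above all 4 hearts, and the difference of 2.10 was 4.28-fold (SE 0.164, limma adjusted p 3.58e-05, higher in 2 of 2 genotypes). Dnajc27, which carries a Rab-like GTPase domain, read 8.84 and 9.31 in KO and WT TA, against 6.96 and 6.72 in KO and WT adult heart. Its difference of 2.24 was 4.71-fold (SE 0.205, limma adjusted p 8.39e-05), and its other probe gave 1.16.

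Dnajc12, a partner of the aromatic amino acid hydroxylases, read 8.44 and 8.48 in KO and WT TA, against 7.09 and 6.73 in KO and WT adult heart, a rise of 1.55 (SE 0.185, limma adjusted p 0.000358). Hspa1l, an HSP70 best known from testis, read 8.66 and 8.35 in KO and WT TA, against 7.30 and 6.77 in KO and WT adult heart, a rise of 1.47 (SE 0.204, limma adjusted p 0.000812). Dnajb5 rose by 1.12 (limma adjusted p 0.0102), with 0.59 between the KO samples and 1.66 between the WT samples, and fell under 2-fold in 4 of 9 other settings of the processing.

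Both HSP90 genes measured, Hsp90aa1 and Hsp90b1, were lower in TA. The array named no probe for Hsp90ab1, which is also on the HSP90 list, so the family was read only in part. Hsp90b1 read 10.38 and 10.26 in KO and WT TA, against 11.44 and 11.79 in KO and WT adult heart, a difference of -1.29 (SE 0.191, limma adjusted p 0.00110). Hsp90aa1 read 6.96 and 6.63 in KO and WT TA, against 7.90 and 8.26 in KO and WT adult heart, also -1.29 (SE 0.239, limma adjusted p 0.00339), but its other probe gave -0.25, and the mean of both probes was -0.77, under 2-fold. Dnajb1, the main heat-inducible HSP40, read 8.81 and 8.88 in KO and WT TA, against 10.01 and 9.86 in KO and WT adult heart, a difference of -1.09 (SE 0.146, limma adjusted p 0.000669). Hspa4l, an HSP110 protein, was detected in all 4 hearts and in neither TA sample, so its fold has only a bound, at least 1.19-fold lower in TA (limma adjusted p 0.00256). Its count among the 4 lower genes rests on the normalised value of -1.13, which was under 2-fold in 4 of 8 other settings of the processing (nearest to 0 at -0.53).

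At any fold, 11 members were higher and 11 lower in TA at an adjusted p of 0.05, together 22 of 52, beside 43.1% of all genes. Among the lower members, Hspa4l, Dnajc5b and Dnajc6 were detected in neither TA sample. Their differences rest on values under the detection limit, and for Dnajc5b and Dnajc6 not even a lower bound of the fold can be given. Hspb2 (0.75, limma adjusted p 0.00711) and Hspb1 (0.69, limma adjusted p 0.0128) were among the higher ones, so that 3 of 6 measured small heat shock proteins rose and none fell. With 6 genes, that share is near the 43.1% of all genes that passed either way. In mitochondria the chaperonin barrel Hspd1 fell by 0.77 (limma adjusted p 0.00566), while its lid Hspe1 differed by 0.08 (limma adjusted p 0.818), and Hspa9 fell by 0.49. Of the ER folding genes beside the members, Pdia3, a disulphide isomerase, fell by 1.49 and Herpud1 by 1.20 in TA, and none of the 12 rose past 2-fold. No co-chaperone on the list passed 2-fold between the tissues.

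**Figure D3:**
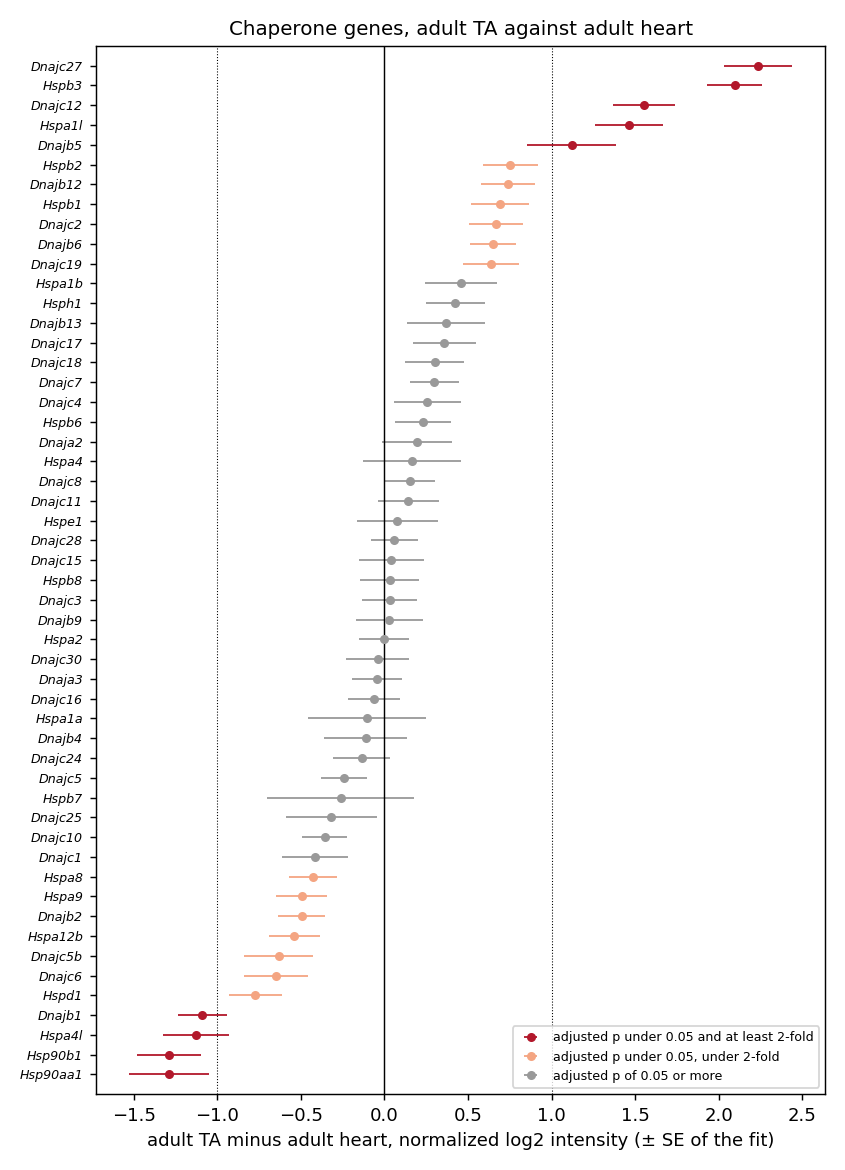
Fitted difference of normalised log2 intensity, adult TA minus adult heart, for the 52 members tested, with bars of 1 SE of the fit on either side and dotted lines at 2-fold; dark red marks an adjusted p under 0.05 and 2-fold, light orange an adjusted p under 0.05 only. Dnajc27 (2.24) and Hspb3 (2.10) stand at the high end and Hsp90aa1 and Hsp90b1 (-1.29 each) at the low end.

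Between adult and P14 heart, 3 of 52 members (5.77%) passed an adjusted p of 0.05 and 2-fold, all higher in the adult, beside 3.63% of all genes higher and 2.81% lower (6.45% either way). Dnajc28 read 9.38 and 9.54 in KO and WT adult heart, against 8.27 and 8.50 in KO and WT P14 heart, a rise of 1.07 (SE 0.140, limma adjusted p 0.00230), and its other probe gave 0.56. Dnajb2, a J-domain protein that brings ubiquitinated clients to the proteasome, read 10.61 and 10.77 in KO and WT adult heart, against 9.70 and 9.59 in KO and WT P14 heart, a rise of 1.04 (SE 0.142, limma adjusted p 0.00285). Dnajc12 read 7.09 and 6.73 in KO and WT adult heart, against 6.05 and 5.70 in KO and WT P14 heart, a rise of 1.04 (SE 0.185, limma adjusted p 0.00928), with 0.41 at its other probe. All 3 lie close to the 2-fold limit, and with each array centred on its median none of the members passed both limits. Marker genes differed between the ages as well, with a median of 5.71 over 2 airway genes and 2.80 over 4 fat cell genes. The medians of the other marker lists lay between -1.31 (fast skeletal fibres) and 0.37 (heart muscle). The WT P14 array, which reads as a pool of both sexes, is part of the P14 side. The part of these differences in the age results was not tested.

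At any fold, 8 members were higher and 1 lower in the adult at an adjusted p of 0.05, together 9 of 52, beside 14.2% of all genes. Median centring moved the median of the members to -0.0026, against 0.16, and that of all genes to -0.22, against -0.01. Under 2-fold, Hspa1l (0.98), the ER J-domain proteins Dnajb12 (0.80) and Dnajb9 (0.78), Hspb8 (0.71) and Dnajb6 (0.54) also rose with age at that adjusted p. The other probes gave 0.91 for Hspb8 and 0.49 for Dnajb9, but 0.12, -0.09 and -0.21 for Dnajb6. Hspb3 was the only member that fell, by 0.69 (limma adjusted p 0.0286). Of 8 measured DNAJB genes 4 rose (Dnajb2, Dnajb6, Dnajb9, Dnajb12) and none fell at that adjusted p. Hspb7 and Hspa1a differed by age mainly in the KO hearts, where the adult was higher by 1.49 and 1.54, against -0.39 and -0.09 in WT, and neither passed the fit. Among the genes beside the members, Fkbp5 rose by 1.88 (limma adjusted p 0.000664) and Herpud1, a part of ER-associated degradation, by 1.52 (limma adjusted p 0.000590).

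**Figure D4:**
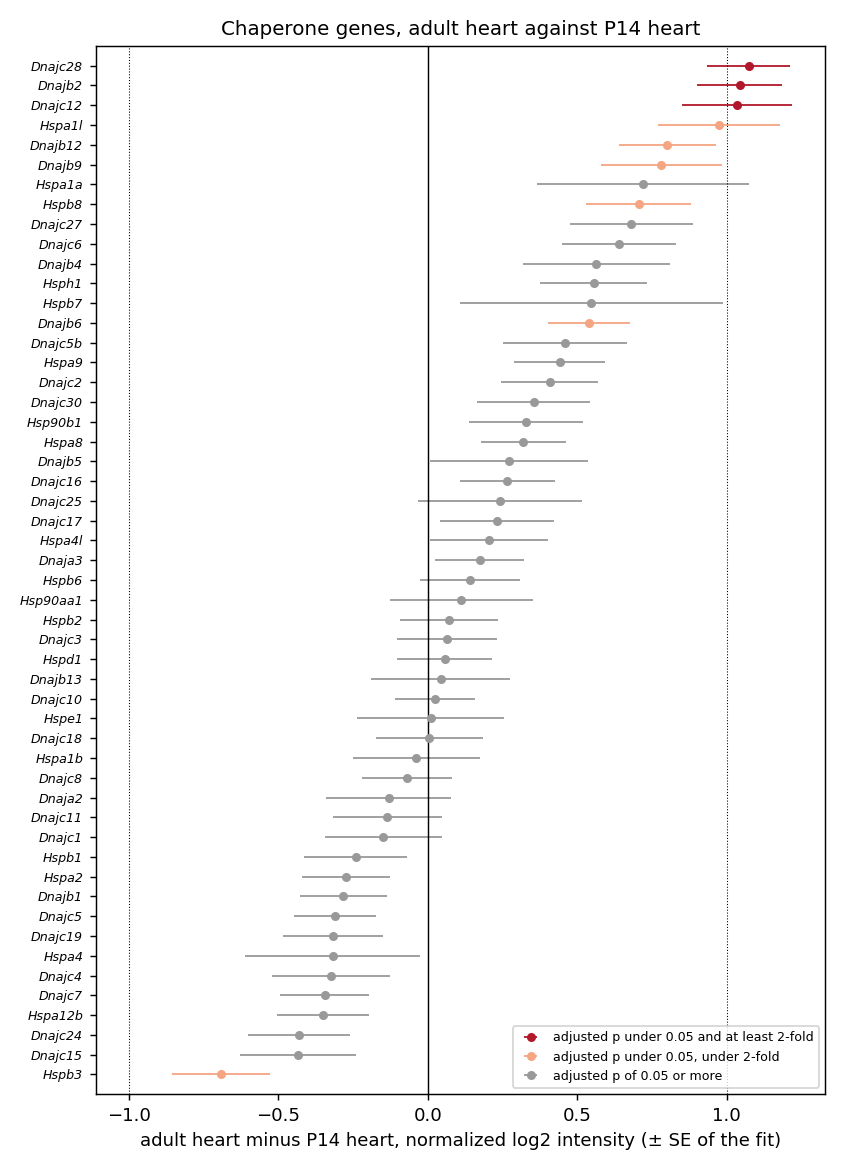
Fitted difference of normalised log2 intensity, adult heart minus P14 heart, for the 52 members tested, with bars of 1 SE of the fit on either side and dotted lines at 2-fold, coloured as in the plot of TA against heart (dark red for an adjusted p under 0.05 and 2-fold, light orange for the adjusted p only). Dnajc28 (1.07), Dnajb2 (1.04) and Dnajc12 (1.04) lead just past the 2-fold line, and Hspb3 (-0.69) is lowest.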

How the data were processed

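Total RNA of 6 samples, each pooled from 3 mice, was read on Illumina bead arrays. Per the file headers, the authors deposited for each of 45281 probes the mean bead intensity with its standard error (an intensity), a detection p-value and the bead count, without background subtraction or normalisation. They also deposited processed intensity values that keep each array's rank order. No source used here names the software.

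Background was corrected with limma 3.58.1 (R 4.3.3, data.table version 1.17.8; normexp, with negative controls estimated through the detection p-values; offset 16), followed by quantile normalisation and log2. Probes were named from the platform annotation (34885 probes with 1 gene, 18 with several, 10378 unnamed), and each gene is its brightest probe. A newer gene annotation changed 0 symbols. A median of 43 or 44 beads read each probe, 8653 to 9931 genes were detected per array, and the median bead SE of a member's KO minus WT difference was 0.0754 to 0.0853. Precision is limited by 1 array per group. Genes detected on at least 2 arrays (10271, with 52 of 53 members, all but Hspa5) entered a limma fit with terms for setting and genotype (lmFit, then eBayes with trend; 2 residual degrees of freedom). Adjustment was by Benjamini-Hochberg, and a call between settings needed 2-fold as well. KO and WT pairs have no test, and 1.5-fold is a description. The fit was run on simulated data with independent noise and genotype changes of known size, the same in every setting. That run cannot show how the fit behaves where a difference varies between settings.

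The members and gene lists were chosen with earlier results of these data known. Named genes follow a rule: small heat shock proteins, HSP70 and HSP90 always, the smallest p-values over the settings, the largest called differences between settings, and the 4 largest differences per direction in each pair. Alternatives were other scaling, background, offset, filters, probe summaries and fewer arrays; fitting each probe alone was added after seeing the data.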

Additional observations from a re-analysis of the deposited data

Results flagged for a closer look

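Hspa1a, the heat-inducible HSP70, differed between KO and WT in opposite directions at the 2 ages. KO minus WT was -0.78 in P14 heart (bead SE 0.192) and 0.85 in adult heart (bead SE 0.162), each past 1.5-fold. With 1 array per group the difference between the ages was not tested. The WT P14 array differed from the other 5 arrays in Y-linked genes, and summed immediate early genes read 1750 in KO and 2517 in WT P14 heart, and 1250 in KO and 890 in WT adult heart. The P14 sum does not stand for the whole list: 2 of the 5 measured genes were higher and 3 lower in KO (median -0.08). In adult heart 5 of 5 were higher in KO (median 0.47). The part of Y-linked and immediate early genes in the result was not tested.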

How the results depend on the processing

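Of 57 counts recomputed under other settings, 46 stayed within 1.5 times the reported count, and no member reported past a threshold changed sign. Median centring turned the sign of KO minus WT for 4 other members in P14 heart (Hspa8 0.14, against -0.07; Hspb8 0.02, against -0.09; Dnajc7; Dnajc10), 4 in adult heart (Hspb3, Hspb6, Dnajc2, Dnajc8) and 2 in TA (Hspd1, Dnajb4), all at most 0.11 in size as reported. Other background settings and the deposited values turned none in the pairs. Over the 3 settings, 0 members passed, against 1 with arrays centred on the median (Hspb1) and 0 to 1 when a setting was left out (Hspb7 without P14 heart). In adult minus P14 heart, 3 members passed, against 0 with median centring, 1 with the mean of detected probes (Dnajb2) and 5 past 2-fold within KO arrays alone. Past 1.5-fold, the P14 pair gave 6 members, against 3 without background correction, with an offset of 50 or in the authors' deposited values. The adult heart pair gave 10, against 6 in each of those 3 settings. The cause was not tested. Median centring moved the median of all genes to -0.25 in TA minus adult heart, -0.22 in adult minus P14 heart and -0.11 in the adult heart pair. All genes past the threshold in TA minus adult heart were then 651 higher and 1542 lower, against 869 and 1092; in adult minus P14 heart 258 and 513, against 373 and 289; and in the adult heart pair 579 and 624, against 741 and 385. The median of the members in the adult heart pair was then -0.04, against 0.06. Dnajc27, Hspb3, Dnajc12, Hspa1l, Hsp90b1 and Dnajb1 kept their calls between TA and heart under 9 of 9 alternatives, and Dnajc12 lost its call with age under 5 of 9. In the 3 settings without background subtraction or with the higher offset, Hspa1a, Hspa4 and Hsph1 were under 1.5-fold in P14 heart, and Hspa1a, Hspe1, Dnajb5 and Dnajc25 in adult heart. Of these, Hspa1a, Hspa4, Dnajb5 and Dnajc25 read under 7 on every array, where background limits a fold. The fit over the settings already pairs KO with WT within each setting. With 1 array per group, no replicate numbers exist to pair beyond that.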
